A study of Columba livia and Gallus gallus with 96 samples.

Results

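The genes described here encode the metalloproteinases that cut the extracellular matrix and shed proteins from the cell surface, together with the inhibitors that hold them in check: the ADAM, ADAMTS, ADAMTS-like, MMP and TIMP families. Members were chosen by name alone, as all pigeon features whose gene symbol opens with one of these 5 family names followed by a digit. This rule found 45 features, which carry 43 symbols among the 15850 genes left after the features of each symbol were summed. ADAMTSL3 was summed from 3 features and each other member has a single one. By role they comprise 9 matrix metalloproteinases, 3 TIMPs, 17 ADAMTS proteases, 3 ADAMTS-like proteins and 11 ADAMs. MMP13 and MMP14, a collagenase and the best-known membrane-anchored MMP, carry no feature under these names and are not analysed here.

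Matrix metalloproteinases are secreted or membrane-bound enzymes that degrade collagens and other matrix proteins, and TIMPs block their active sites. The ADAMTS proteases are secreted enzymes that cut proteoglycans such as versican and aggrecan, trim procollagens or act on other matrix glycoproteins, and the ADAMTS-like proteins share their matrix-binding modules without the protease. Most ADAMs are membrane-anchored and release growth factors, cytokines and receptors from cells, while a few have lost the catalytic residues and act in adhesion. In the limb bud, versican-rich matrix surrounds the mesenchyme that condenses into cartilage, and turnover of this matrix accompanies skeletal patterning, muscle formation and the later loss of interdigital tissue.

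RNA came from limb buds of domestic pigeon (Columba livia) embryos of 3 foot phenotypes: scale, with scaled feet, and grouse and muff, whose feet are feathered. The buds of forelimb (FL) and hindlimb (HL) were taken in pairs at Hamburger-Hamilton stages HH21, HH25 and HH29, at embryonic days 3.5, 4.5 and 6, which gave 18 groups of 4 libraries and 72 libraries in all. RNA was taken from the whole bud, with its mesenchyme, muscle precursors, vessels, nerves and ectoderm. No group carried a treatment or an engineered allele, and the phenotypes are those of domestic pigeons, so the genetic background of scale, grouse and muff embryos cannot be told apart from the phenotype. The labels do not say whether the 4 libraries of a group came from separate embryos, so p-values measure the spread between these libraries.

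Library totals ranged from 10438537 to 16378164 counts (median 12915094.5). The limb labels fitted the limb identity genes: at all 3 stages PITX1 and TBX4, which mark the hindlimb, were called higher in hindlimb and TBX5, which marks the forelimb, was called lower. The mean level of genes that the RefSeq assembly bColLiv1.pat.W.v2 places on chromosome Z fell into separate ranges, 4.09 to 4.59 on the log2 CPM scale in 42 libraries and 4.93 to 5.22 in 30, and the ranges are unevenly spread over the groups. Some libraries held extreme member values more often than others. Muff hindlimb replicate 1 at HH29 had the highest value of 22 of the 43 members among its 12 libraries, and scale hindlimb replicate 4 at HH25 of 20. Grouse hindlimb replicate 1 at HH21 had the lowest value of 15. In forelimb, muff replicate 1 at HH29 and scale replicate 4 at HH25 each had the highest value of 16. Values below are CPM, counts scaled to a common library total with TMM factors, log2 fold changes are given ± SE, and a member was called when edgeR's quasi-likelihood test gave a Benjamini-Hochberg adjusted p below 0.05 over all genes tested.

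The members rose with stage more than they fell. From HH21 to HH25 in hindlimb, 42 members were tested and 27 were called higher and 2 lower, against 50.8% of all genes called in either direction, 26% higher and 24.9% lower. From HH25 to HH29 in hindlimb, 31 were higher and 1 lower, against 54% of all genes called, 27.1% higher and 26.9% lower. In forelimb, 27 were higher and 2 lower over the first interval (56.1% of all genes called, 28.3% higher and 27.8% lower), and 29 higher and 5 lower over the second (45.7% called, 23.1% higher and 22.7% lower). The median member log2 fold change was 0.39 and 0.63 in hindlimb and 0.48 and 0.44 in forelimb, where the median of all genes tested was 0.0027, 0.0013, 0.007 and −0.0038. The 2 intervals share the HH25 libraries, and the stage comparisons pool the 3 phenotypes as 12 libraries per stage with phenotype as a term. ADAM20 was too low to be tested in any comparison (237 counts over the 72 libraries), and ADAM11 (921 counts) passed the filter on low counts only where later stages took part, so the 42 tested are not all members. Together the members held 0.172% ± 0.0063 of all counts in scale hindlimb at HH21, 0.221% ± 0.0147 at HH25 and 0.295% ± 0.0196 at HH29 (mean ± SD, n = 4).

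**Figure D1:**
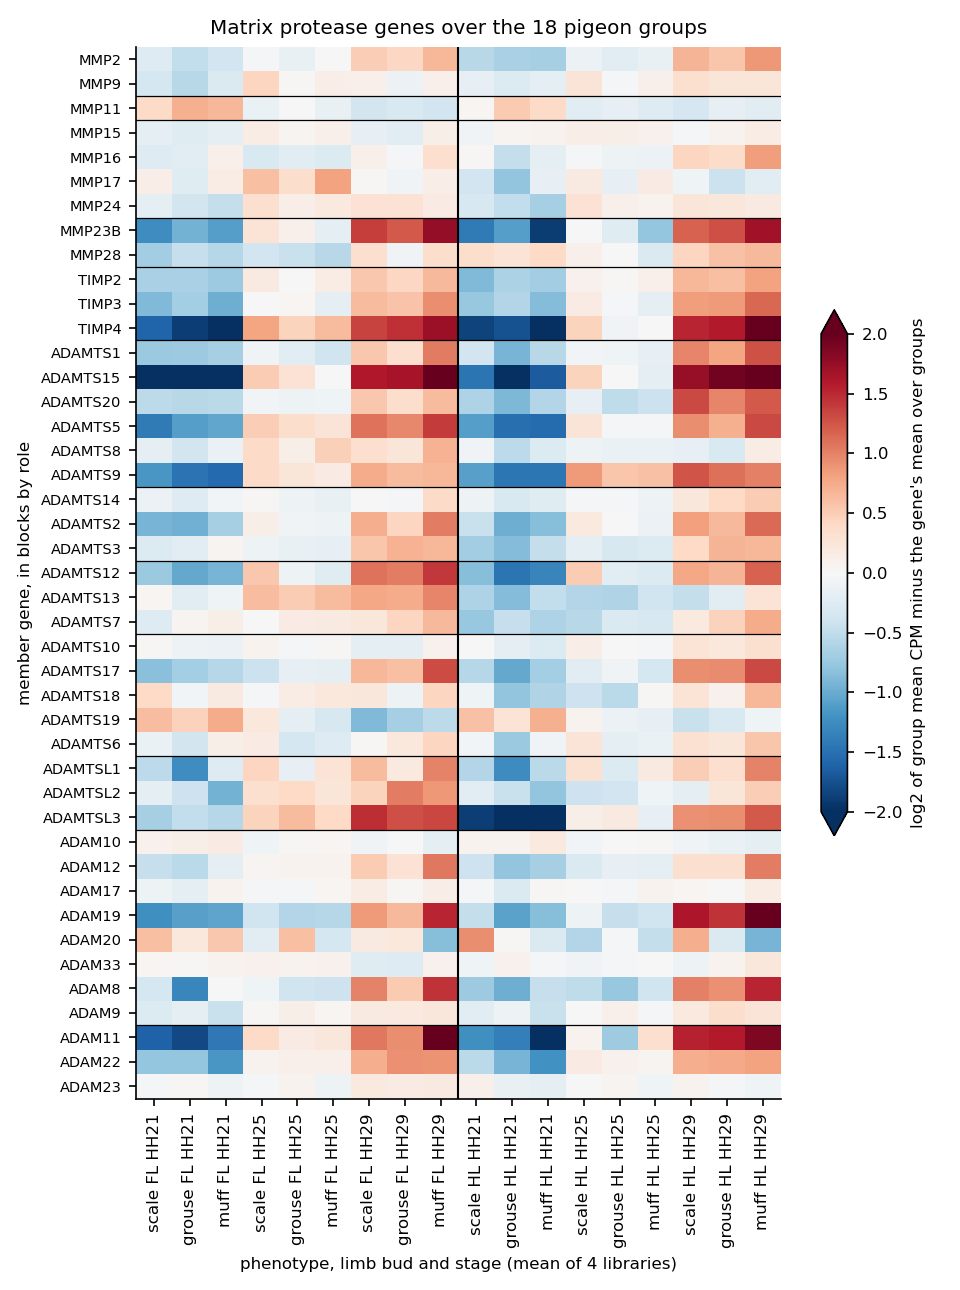
Colour shows the log2 of the mean CPM of 4 libraries in each of the 18 groups, minus the mean of that gene over the groups, with member genes in rows by role and groups in columns by limb bud, stage and phenotype. Most rows pass from blue at HH21 to red at HH29 in both limbs, MMP11 and ADAMTS19 run the other way, and ADAM10 stays pale.

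MMP2, the gelatinase that degrades denatured and basement membrane collagen, had the lowest, median and highest values of 245, 303 and 326 CPM (HH21), 353, 421 and 447 (HH25), and 587, 732 and 973 (HH29) in the 12 hindlimb libraries of each stage. In forelimb these were 252, 356 and 408 CPM (HH21), 352, 439 and 499 (HH25), and 496, 633 and 857 (HH29). Hindlimb values of successive stages did not overlap, whereas the forelimb ranges did. MMP2 rose at each step, by log2 fold changes of 0.48 ± 0.052 (adjusted p 2.58e-08) and 0.86 ± 0.065 (adjusted p 1.55e-10) in hindlimb and 0.32 and 0.60 in forelimb. MMP9, the gelatinase of inflammatory and bone-resorbing cells, rose over the first interval, by 0.33 ± 0.12 (adjusted p 0.0283) in hindlimb and 0.60 ± 0.10 (adjusted p 1.61e-05) in forelimb, and had 0.15 and −0.16 over the second without a call. The first hindlimb value was not called without replicate 3 (0.23, adjusted p 0.188) or 4 (0.19, 0.281), or with the Z level as a term (0.0639).

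MMP11, the stromelysin that is activated inside the cell before secretion, fell where most members rose. Its lowest, median and highest values were 72.4, 97.3 and 153 CPM (HH21), 49.2, 59.2 and 80.5 (HH25), and 45.8, 52.5 and 59.9 (HH29) in forelimb, and 63.3, 79.8 and 124 CPM (HH21), 50.2, 56.6 and 75.7 (HH25), and 45.8, 57.9 and 72.8 (HH29) in hindlimb. The ranges of neighbouring stages overlapped in both limbs. It fell from HH21 to HH25 with a log2 change of −0.66 (adjusted p 8.37e-07) in forelimb and −0.52 (adjusted p 2.15e-05) in hindlimb. From HH25 to HH29 it fell further in forelimb, with a log2 change of −0.25 ± 0.069 (adjusted p 0.00425), but without replicate 3 this was −0.17 (adjusted p 0.102), and hindlimb gave −0.021 ± 0.071 (adjusted p 0.818).

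Among the membrane-type MMPs, MMP17, which is held by a lipid anchor, rose and then fell. Forelimb values were 24.8, 37.7 and 48.8 CPM (HH21), 42, 52.8 and 67.7 (HH25), and 23, 36.9 and 52.6 (HH29) (lowest, median and highest). The HH25 values were the highest of the 3 stages by their median in both limbs, with overlap between stages. The log2 fold changes were 0.58 and −0.54 in forelimb (adjusted p 2.68e-07 and 3.37e-05) and 0.52 and −0.31 in hindlimb (adjusted p 3.23e-05 and 0.000914). MMP24 rose over the first interval, by 0.66 in hindlimb and 0.57 in forelimb, and was not called over the second. MMP16 was not called over the first interval and rose over the second, by 0.64 ± 0.11 (adjusted p 4.08e-05) in hindlimb and 0.41 ± 0.09 (adjusted p 0.000588) in forelimb. MMP15 was called in forelimb, higher at 0.32 and then lower at −0.18; the second value was −0.31 in scale, −0.25 in grouse and 0.031 in muff taken alone, and without replicate 3 or 4 it had an adjusted p of 0.0865 or 0.127.

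MMP23B, a membrane-tethered MMP without the usual haemopexin domain, rose at each step in both limbs. Hindlimb libraries gave 1.09, 1.84 and 3.06 CPM (HH21), 2.08, 4.42 and 7.7 (HH25), and 9.43, 14.8 and 21.5 (HH29), as lowest, median and highest. The HH29 range lay above the HH25 range without overlap in hindlimb. Changes on the log2 scale were 1.13 ± 0.15 (adjusted p 5.53e-07) and 1.71 ± 0.16 (adjusted p 4.88e-09) in hindlimb, and 1.16 and 1.40 in forelimb. MMP28, known as epilysin, rose over the second interval, by 0.61 in hindlimb and 0.67 in forelimb.

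All 3 TIMPs measured rose at each step in both limbs. TIMP4 had the lowest, median and highest values of 1.18, 1.96 and 5.53 CPM (HH21), 11.1, 14.2 and 20.2 (HH25), and 15.7, 26.1 and 37.2 (HH29) in forelimb. In hindlimb these were 1.02, 2.29 and 4.79 CPM (HH21), 6.74, 9.85 and 16.3 (HH25), and 20.1, 29.4 and 46.8 (HH29). No HH21 library reached the level of any HH25 library in either limb, and in hindlimb the HH25 and HH29 ranges were also apart. The log2 fold changes were 2.58 ± 0.18 (adjusted p 1.10e-11) and 0.90 ± 0.12 (adjusted p 1.80e-06) in forelimb and 2.14 ± 0.19 (adjusted p 9.52e-10) and 1.59 ± 0.14 (adjusted p 1.23e-09) in hindlimb. TIMP3, which stays bound to the matrix and also blocks ADAM17 and aggrecanases, went from a hindlimb range of 20.4–30.6 CPM (median 25) at HH21 through 33.5–61.3 CPM (median 40.5) to 58.5–101 CPM (median 79) at HH29. Between stages its log2 fold changes came to 0.73 and 0.97 in hindlimb and 0.80 and 0.77 in forelimb. TIMP2, which also takes part in the activation of MMP2 at the cell surface, rose by 0.82 and 0.63 in hindlimb and 0.80 and 0.43 in forelimb.

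**Figure D2:**
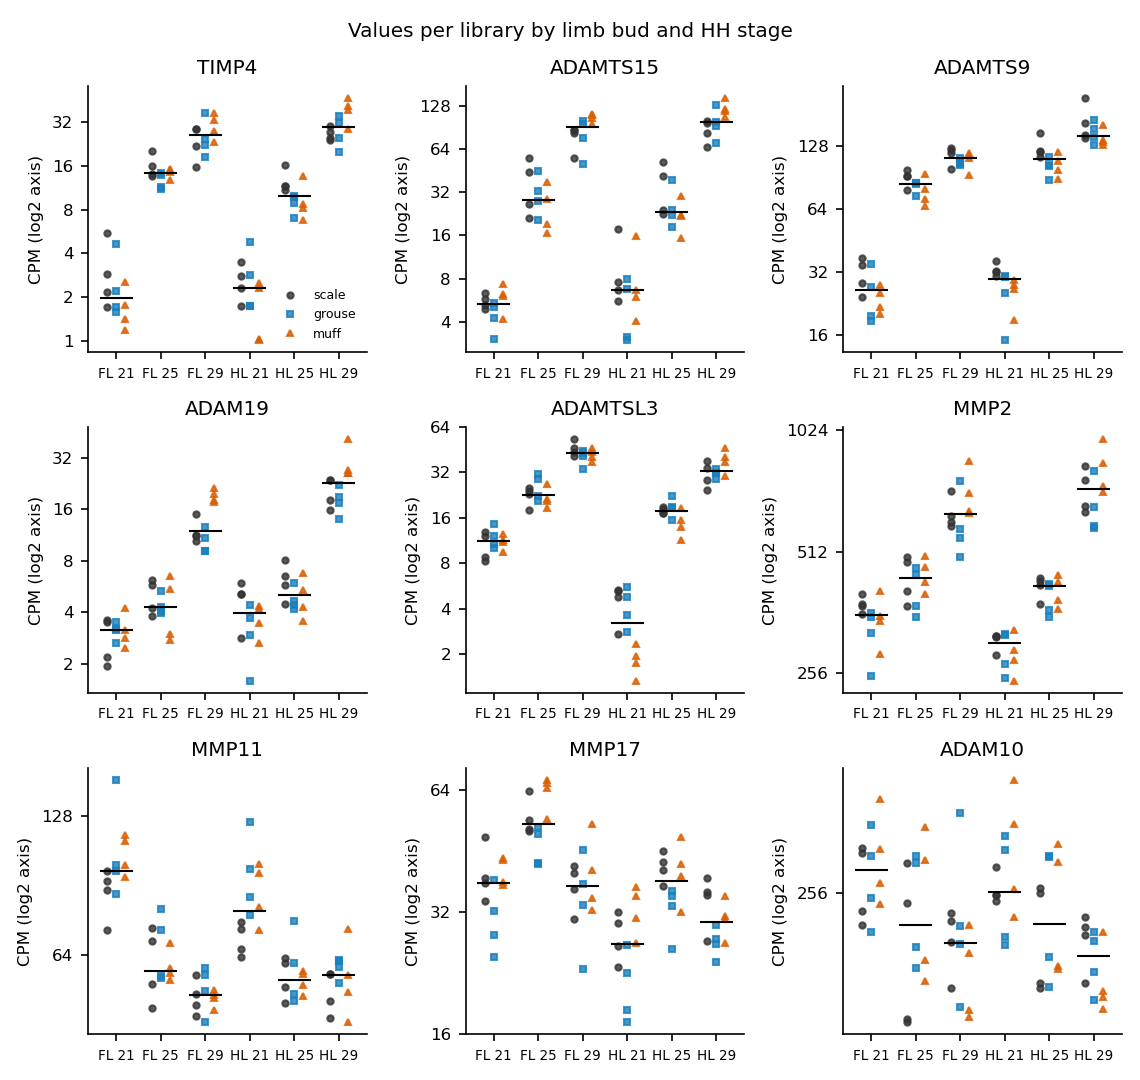
Each point is a library, on a log2 axis of CPM, for 9 members in forelimb (FL) and hindlimb (HL) buds at HH21, HH25 and HH29, with scale, grouse and muff marked apart and a bar at the median of 12 libraries. TIMP4, ADAMTS15, ADAMTS9, ADAM19, ADAMTSL3 and MMP2 climb, MMP11 descends and MMP17 peaks at HH25. ADAM10 was not called at any step with all replicates and phenotype as the only other term, but was called lower in some other fits.

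The 6 ADAMTS proteases known to cut versican or aggrecan mostly rose: 5 and 5 of 6 were called higher over the 2 intervals in hindlimb, 6 and 5 in forelimb, and none lower. ADAMTS15 had the lowest, median and highest values of 3.05, 5.31 and 7.29 CPM (HH21), 16.5, 28.2 and 55.1 (HH25), and 50.2, 91.1 and 112 (HH29) in forelimb. Hindlimb gave 2.99, 6.63 and 17.7 CPM (HH21), 15.4, 23.2 and 51.9 (HH25), and 65.7, 99.5 and 145 (HH29). Between HH25 and HH29 the hindlimb ranges were apart, while the HH21 and HH25 hindlimb ranges met: scale replicate 4 and muff replicate 1 reached 17.7 and 15.9 CPM at HH21. Its log2 fold changes came to 2.55 ± 0.18 (adjusted p 1.36e-11) and 1.5 ± 0.18 (adjusted p 2.86e-07) in forelimb and 1.90 ± 0.25 (adjusted p 4.85e-07) and 1.89 ± 0.17 (adjusted p 2.68e-09) in hindlimb.

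ADAMTS9, a versican-cleaving protease needed for interdigital tissue regression in the mouse, rose at each step. Hindlimb values were 15.1, 29.7 and 36.1 CPM (HH21), 88, 110.1 and 147 (HH25), and 129, 143 and 216 (HH29). The HH21 range lay below the HH25 range in both limbs. It changed, on the log2 scale, by 2.0 ± 0.093 (adjusted p 1.17e-14) and then 0.47 ± 0.072 (adjusted p 5.21e-06) in hindlimb, and 1.66 and 0.43 in forelimb. ADAMTS5, the main aggrecanase of mouse cartilage, rose from 1.34–5.56 CPM (median 3.3) at HH21 to 7.7–14.1 CPM (median 9.42) at HH25 in hindlimb, without overlap. Its log2 fold changes came to 1.47 and 0.91 in hindlimb and 1.55 and 0.79 in forelimb.

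ADAMTS1 and ADAMTS20, versican-cleaving proteases, rose at each step in both limbs. ADAMTS1 in hindlimb ranged over 21.1–36 CPM (median 26.2) at HH25 and 44.7–76.9 CPM (median 59.3) at HH29, with no overlap. Fitted log2 fold changes stood at 0.54 and 1.11 in hindlimb and 0.50 and 0.87 in forelimb, the first forelimb value losing its call without replicate 4 (adjusted p 0.0546). ADAMTS20 in hindlimb ranged over 7.34–16.1 CPM (median 12.1) at HH25 and 26.6–55.1 CPM (median 35.2) at HH29, again with no overlap, and over 9.83–20.4 CPM (median 15.5) and 17–31.6 CPM (median 21.1) in forelimb, where the ranges met. The log2 fold changes of ADAMTS20 were 0.35 and 1.54 ± 0.11 (adjusted p 4.92e-11) in hindlimb and 0.47 and 0.59 ± 0.12 (adjusted p 0.000189) in forelimb. The first hindlimb value of ADAMTS20 lost its call without replicate 1 (adjusted p 0.0849) or 2 (0.204). ADAMTS8 was called in forelimb over the first interval (0.57).

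The procollagen-trimming ADAMTS2, ADAMTS3 and ADAMTS14 were all called higher at both steps in hindlimb, and in forelimb ADAMTS2 at both, ADAMTS3 at the second and ADAMTS14 at neither. ADAMTS3, which also prepares the lymphatic growth factor VEGFC for activation, had hindlimb values of 15.5, 25.8 and 34.2 CPM (HH21), 30.6, 34.2 and 45.1 (HH25), and 53.6, 64.8 and 77.9 (HH29), lowest, median and highest. The HH29 hindlimb range lay above that of HH25. Its log2 fold changes came to 0.43 and 0.85 ± 0.072 (adjusted p 7.73e-10) in hindlimb and 0.024 and 0.78 ± 0.071 (adjusted p 4.10e-09) in forelimb. ADAMTS2 rose by between 0.76 and 0.85 over the 4 tests.

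Of the proteases that cut cartilage oligomeric matrix protein or von Willebrand factor, ADAMTS12 and ADAMTS7 cut the former and ADAMTS13 the latter. ADAMTS12 rose at each step, by 1.23 and 0.88 in hindlimb and 0.98 and 1.12 in forelimb; it is placed on chromosome Z and its values are given with the Z level further on. ADAMTS7 rose over both intervals in hindlimb (0.24 and 0.86) and the second in forelimb (0.33). ADAMTS13 rose in forelimb at both steps (0.68 and 0.25) and in hindlimb at the second (0.39).

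ADAMTS17, which acts in the fibrillin matrix, rose at each step, with hindlimb values of 18.7–39.1 CPM (median 25) at HH25 and 48.8–90.5 CPM (median 60.4) at HH29, without overlap. That step had log2 fold changes of 1.28 in hindlimb and 1.14 in forelimb. ADAMTS19, a poorly characterised relative, was the other member besides MMP11 called lower over the first interval in both limbs, with a log2 change of −0.58 ± 0.12 (adjusted p 0.000174) in hindlimb and −0.70 ± 0.12 (adjusted p 1.31e-05) in forelimb. Its forelimb values were 41.2, 47.5 and 72.5 CPM (HH21), 19, 30.2 and 49.3 (HH25), and 13.4, 20.7 and 29.7 (HH29). Over the second interval it fell in forelimb with a log2 change of −0.58, and the hindlimb value of −0.20 was not called (adjusted p 0.213), but became −0.34 (adjusted p 0.000826) with the Z level as a term.

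ADAMTSL3, an ADAMTS-like matrix protein without a protease domain, showed the largest hindlimb change among members over the first interval. Its lowest, median and highest hindlimb values were 1.33, 3.21 and 5.57 CPM (HH21), 11.4, 17.9 and 22.5 (HH25), and 24.6, 32.9 and 46.6 (HH29). Forelimb libraries gave 8.23, 11.3 and 14.5 CPM (HH21), 18.1, 22.6 and 31.2 (HH25), and 33.9, 43.3 and 53.3 (HH29). In both limbs the 3 stages were fully apart from each other. Step by step this gave 2.37 ± 0.15 (adjusted p 2.17e-12) and 0.98 ± 0.10 (adjusted p 1.80e-08) in hindlimb and 1.08 ± 0.094 (adjusted p 5.35e-10) and 0.88 ± 0.085 (adjusted p 9.21e-09) in forelimb. ADAMTSL2, which binds latent TGF-beta complexes and fibrillin, rose at both steps in forelimb (0.83 and 0.48) and the second in hindlimb (0.49).

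ADAM19, a sheddase of neuregulins and other EGF-family ligands, rose at each step. Its hindlimb values were 1.6, 3.96 and 5.94 CPM (HH21), 3.55, 5.07 and 8.08 (HH25), and 14, 22.9 and 41.1 (HH29). In forelimb they were 1.95, 3.17 and 4.23 CPM (HH21), 2.76, 4.28 and 6.55 (HH25), and 9.11, 12 and 21.3 (HH29). All HH29 libraries lay above all HH25 libraries in both limbs. The log2 fold changes were 0.49 ± 0.15 (adjusted p 0.00974) and 2.07 ± 0.14 (adjusted p 3.97e-11) in hindlimb and 0.61 and 1.54 ± 0.15 (adjusted p 8.49e-09) in forelimb. Without replicate 4 the first hindlimb value was 0.42 (adjusted p 0.0729).

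ADAM12, its relative in muscle and skeletal mesenchyme, rose at each step, by 0.43 and 0.77 in hindlimb and 0.47 and 0.57 in forelimb. The first hindlimb value was 0.24 (adjusted p 0.0513) without replicate 2. ADAM8, known from leukocytes and osteoclasts, rose over the second interval, by 1.70 ± 0.13 (adjusted p 2.65e-10) in hindlimb and 1.29 ± 0.17 (adjusted p 1.29e-06) in forelimb. ADAM9 rose by 0.29 and 0.25 in hindlimb and 0.37 and 0.15 in forelimb. ADAM10, which releases Notch and cadherin ectodomains, ranged from 231–321 CPM (median 257) at HH21 to 203–244 CPM (median 225) at HH29 in hindlimb and was not called at any step, with log2 fold changes between −0.12 and −0.062. It was called lower from HH21 to HH25 without replicate 1 (−0.19, adjusted p 0.0255, in hindlimb and −0.20, 0.0221, in forelimb) or 2 (−0.19, 0.0342, and −0.22, 0.00959). With replicates 1 and 2 set against 3 and 4 as a term, ADAM10 was also called lower over that interval in both limbs (adjusted p 0.00311 and 0.000214) and over the second in hindlimb (0.00497), and the Z level as a term gave −0.17 (0.0442) in forelimb. ADAM17, which releases TNF and EGF-receptor ligands, was called at 1 step, higher in forelimb over the second interval at 0.12 ± 0.045 (adjusted p 0.0354), and lost that call with no filter, with the Z level as a term, or without replicate 2, 3 or 4.

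The non-catalytic ADAMs, of which ADAM22 and ADAM23 bind LGI proteins at the cell surface, differed among themselves. ADAM22 rose at each step, from 5.92–18.2 CPM (median 11.3) to 19.6–29.2 CPM (median 22) and then 26.7–47.8 CPM (median 34.9) in hindlimb, with log2 fold changes of 1.0 and 0.67 there and 1.0 and 0.77 in forelimb. ADAM11 was called higher at each step from levels near the detection limit, with a hindlimb median of 0.206 CPM at HH21 and 1.94 at HH29. ADAM23 was called at 1 step, higher in forelimb from HH25 to HH29 by 0.21 ± 0.056 (adjusted p 0.00324), and not without replicate 3 (adjusted p 0.0523).

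Genes that work with these families changed over the same intervals. Of the other protease inhibitors measured, 5 of 6 rose in hindlimb over the first interval, among them RECK, a membrane-anchored MMP inhibitor (0.19), and the testican SPOCK1 (2.12). Over the second interval 3 rose, including the serine protease inhibitor SERPINE2 (1.15), and SPOCK2 fell (−0.34). Of activators and other matrix proteases, listed with the heparanase HPSE, 8 of 12 rose and 1 fell over the first hindlimb interval. Over the second, 8 rose and none fell. They included the urokinase PLAU, which generates plasmin (0.76 and 1.12), the serine protease HTRA3 (2.90 and 1.97) and the collagen-degrading cathepsin CTSK (1.08 and 0.60). Proteoglycan substrates, listed with the glycoprotein COMP, were called higher for 7 and 6 of 8 in hindlimb, with ACAN, aggrecan itself, at 4.80 and 1.45. VCAN, which encodes versican, had no such rise, with scale hindlimb means of 103, 97.9 and 97 CPM from HH21 to HH29. Its hindlimb means were 91.6, 79.6 and 87.9 CPM in grouse and 81.5, 89.9 and 106 in muff. Among collagen and glycoprotein substrates 13 of 21 rose and 5 fell over the first interval, and 14 rose and 1 fell over the second. In forelimb over the first interval, 3 of 6 rose and 0 fell among inhibitors, 8 of 12 rose and 2 fell among activators and other proteases, 5 of 8 rose and 0 fell among proteoglycans, and 15 of 21 rose and 5 fell among collagens and glycoproteins. Over the second forelimb interval, in the same order, 4 of 6 rose and 1 fell, 5 of 12 rose and 0 fell, 4 of 8 rose and 1 fell, and 14 of 21 rose and 1 fell. The laminin chains LAMA1 (−0.93) and LAMB1 (−0.36) were among those that fell in forelimb over the first interval.

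Markers of several cell types moved with stage as well. Of the cartilage markers 7 of 7 and 6 of 7 were called higher over the 2 hindlimb intervals, and their summed level went from 165–368 CPM at HH21 to 1049–2659 at HH29. Muscle markers were called higher for 5 of 6 and 4 of 6, with summed levels of 15.3–43 and 1184–1654 CPM. ACTC1 alone had a mean of 1271 CPM in scale hindlimb at HH29. PAX3 went the other way, with scale hindlimb means of 13.5, 8.49 and 4.63 CPM from HH21 to HH29. MYF5 had 9.53, 14.2 and 10.5 in the same groups. Osteogenic markers rose for 2 of 4 and 3 of 4 (24.5–52.4 and 42.9–128 CPM) and endothelial markers for 3 of 7 and 6 of 7 (240.4–327 and 356–466 CPM). Blood and macrophage markers rose for 1 of 5 and 4 of 5 (33.3–59.7 and 53.9–83.5 CPM), while 3 of 4 and 2 of 4 ectoderm markers fell (134–218 and 90.4–139.8 CPM). The ectoderm marker TP63 did not fall, with scale hindlimb means of 12.7, 13.9 and 17.5 CPM from HH21 to HH29. Summed hindlimb levels of the mesenchyme markers were 605–822 CPM (median 678) at HH21 and 592–715 (median 668) at HH29. Those of the nerve and glia markers were 2.34–6.09 CPM (median 4.14) and 19.3–29.1 (median 23.8). No marker with a feature was at 0 over all libraries. The part of these changes in the members' values was not tested, and in whole limb buds fewer cells of a type and less RNA per cell cannot be told apart.

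Hindlimb was compared with forelimb at each stage over 12 and 12 libraries, with phenotype as a term. Limb values over all 3 phenotypes are from this unpaired fit unless another is named. At HH21, 41 members were tested, 1 was called higher and 7 lower in hindlimb, against 6.26% of all genes called (2.2% higher, 4.06% lower). At HH25 1 of 42 was higher and 10 lower (8.34% of all genes called, 3.89% higher and 4.44% lower). At HH29 9 of 42 were higher and 5 lower (8.42% called, 4.2% higher and 4.22% lower). The median member log2 fold change was −0.085, −0.077 and 0.14 at the 3 stages, and that of all genes 0.0064, 0.0016 and −0.00039. Same-numbered limbs deviated together at every stage, and with the replicate number as a block the counts became 10, 21 and 22, with 14.8%, 26.8% and 16.6% of all genes called in the same fits. Within single phenotypes, with 4 and 4 libraries, scale gave 3, 1 and 2 calls, grouse 1, 2 and 1, and muff 2, 2 and 0. The share of all genes called in these smaller fits is not given, so the counts do not set members apart from other genes. Without replicate 2 or replicate 3, 9 members were called at HH29 (6.41% and 5.1% of all genes).

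**Figure D3:**
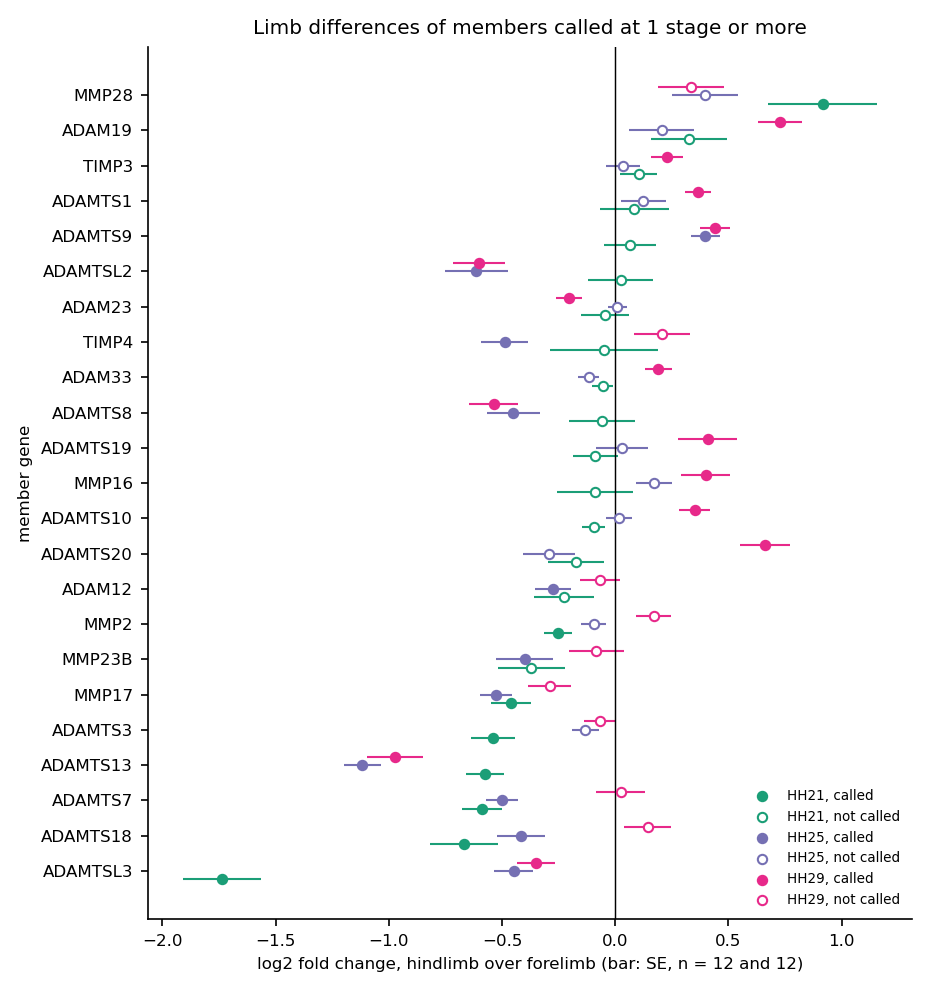
Points give the log2 fold change of hindlimb over forelimb with its SE (12 and 12 libraries) at HH21, HH25 and HH29 for the 23 members called at 1 stage or more, filled where called. ADAMTSL3 lies far to the left at HH21 and ADAMTS13 at HH25 and HH29, and most filled HH29 points lie to the right of 0.

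ADAMTSL3 and ADAMTS13 were called lower in hindlimb at all 3 stages. At HH21, ADAMTSL3 in the 4 scale libraries was 5.3, 2.72, 5.22 and 4.78 CPM in hindlimb and 12.8, 8.77, 12.2 and 8.23 in forelimb. Grouse gave 3.61, 2.81, 4.8 and 5.57 in hindlimb and 12.1, 10.7, 10 and 14.5 in forelimb. In muff the hindlimb values were 1.74, 1.33, 2.34 and 1.93 and the forelimb values 11.2, 9.46, 12.5 and 11.5. No hindlimb library reached a forelimb library, and the muff hindlimb libraries lay below those of scale and grouse. Hindlimb over forelimb, the log2 fold changes came to −1.74 ± 0.17 (adjusted p 9.29e-08) at HH21, −0.45 ± 0.087 (adjusted p 0.00088) at HH25 and −0.35 ± 0.084 (adjusted p 0.00656) at HH29. At HH21 each phenotype alone gave a call, at −1.21 in scale, −1.5 in grouse and −2.61 in muff. The HH29 call was lost without replicate 4 (adjusted p 0.0601).

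ADAMTS13, the von Willebrand factor protease, had forelimb values of 21.8–33.9 CPM (median 25.9) and hindlimb values of 9.73–16.4 CPM (median 12) at HH25, with no overlap. At HH29 the forelimb libraries of scale held 26.8, 33.8, 33.8 and 26.4 CPM and its hindlimb libraries 15.7, 13.3, 11.8 and 10.1. Grouse held 27.9, 26.5, 31.9 and 31.9 in forelimb and 12.4, 15, 14.8 and 18.1 in hindlimb. The muff forelimb values were 37, 30.8, 37 and 35, and the hindlimb values 34.5, 12.9, 22.8 and 16, spread so widely that replicate 1 fell within the forelimb range. Set against forelimb, hindlimb gave log2 fold changes of −0.58 ± 0.086 (adjusted p 4.99e-05), −1.12 ± 0.08 (adjusted p 1.76e-10) and −0.97 ± 0.12 (adjusted p 3.60e-06) from HH21 to HH29. At HH29 the phenotypes alone gave −1.25 in scale, −0.98 in grouse and −0.69 in muff, the last without a call (adjusted p 0.496). TBX5, which marks the forelimb, was called higher in muff than in scale hindlimb at HH29 (3.64), and its part in the muff values was not tested.

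At HH21 and HH25 hindlimb values were lower for MMP17 (−0.46 and −0.52), ADAMTS7 (−0.59 and −0.50) and ADAMTS18 (−0.67 and −0.42). Without the replicate block none of these was called at HH29, where they had −0.29, 0.024 and 0.14. Their HH29 values with the block are not given here. For MMP17 the change of the limb difference from HH21 to HH29 was itself not called (0.16 ± 0.13, adjusted p 0.749). Its lack of a call at HH29 therefore does not show that the difference was lost. ADAMTS7 ranged over 21.8–34.5 CPM (median 24.8) in hindlimb and 28.9–49.9 CPM (median 39.9) in forelimb at HH21, and over 34.7–79.5 CPM (median 56) and 38.3–71.9 CPM (median 56.1) at HH29. The HH21 ranges met at their edges, and those of HH29 covered each other. ADAMTS18 lost its calls without replicate 2 at HH21 (adjusted p 0.0677) and without replicate 3 at HH25 (0.121).

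Without the replicate block, ADAMTS3 and MMP2 were called lower in hindlimb at HH21 and at no other stage. With the block both were also called at HH25. Mean hindlimb and forelimb values at HH25 were 35.7 and 39.1 CPM for ADAMTS3 and 406 and 433 for MMP2. At HH21 ADAMTS3 ranged over 15.5–34.2 CPM (median 25.8) in hindlimb and 30–56.2 CPM (median 38.4) in forelimb. Its log2 fold change there was −0.54 ± 0.10 (adjusted p 0.000543). MMP2 at HH21 gave 245–326 CPM (median 303) against 252–408 CPM (median 356). Its log2 fold change of −0.25 ± 0.062 (adjusted p 0.0102) was not called without replicate 3 (adjusted p 0.0748) or 4 (0.132). MMP28 was the member higher in hindlimb at HH21, over 2.89–17.4 CPM (median 8.18) against 2.99–7.77 CPM (median 3.85), at 0.92 ± 0.24 (adjusted p 0.018), and it was not called without replicate 1 (0.0716) or 2 (0.27). The forelimb and hindlimb ranges of these 3 genes overlapped. MMP11 had −0.27 (adjusted p 0.0951), which was called with the block (0.000908).

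At HH25, TIMP4 ranged over 6.74–16.3 CPM (median 9.85) in hindlimb and 11.1–20.2 CPM (median 14.2) in forelimb and was lower in hindlimb with a log2 change of −0.49 ± 0.10 (adjusted p 0.0024). Without replicate 3 its adjusted p was 0.0534, and neither HH21 (−0.05) nor HH29 (0.21) gave a call. ADAMTSL2 was lower at HH25 and HH29, with a log2 change of −0.61 ± 0.14 (adjusted p 0.00449) and −0.60 ± 0.12 (adjusted p 0.000779), and had 0.023 at HH21. ADAMTS8, a protease first described as blocking vessel growth, was likewise lower at HH25 (−0.45) and HH29 (−0.54). ADAM12 (−0.27, adjusted p 0.0307) and MMP23B (−0.40, adjusted p 0.0486) were lower at HH25, near the threshold. At HH25 ADAM12, ADAMTS8, ADAMTS18, ADAMTSL2 and TIMP4 lost their calls without replicate 3, which left 5 members called (ADAMTS13, ADAMTS7, ADAMTS9, ADAMTSL3 and MMP17), and ADAM12 and ADAMTS8 also without replicate 1 or 4. With the block, HH25 calls were added for ADAM19, ADAMTS20, ADAMTS3, ADAMTS5, ADAMTS6, MMP11 and MMP2 among the members named here, the largest at −0.29 for ADAMTS5 (adjusted p 0.000277). Mean HH25 values were higher in hindlimb for ADAM19 (5.35 against 4.63 CPM) and ADAMTS6 (16.4 against 15.1), and lower for the others of these.

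Several members were higher in hindlimb at HH29. ADAM19 ranged over 14–41.1 CPM (median 22.9) in hindlimb and 9.11–21.3 CPM (median 12) in forelimb, with overlapping ranges and a log2 fold change of 0.73 ± 0.10 (adjusted p 8.76e-06). It was 0.75 in scale, 0.79 in grouse and 0.66 in muff taken alone. ADAMTS20 ranged over 26.6–55.1 CPM (median 35.2) against 17–31.6 CPM (median 21.1), at 0.66 ± 0.11 (adjusted p 0.000162). ADAMTS9 was higher in hindlimb at HH25 by 0.40 ± 0.064 (adjusted p 9.24e-05). At HH29 its hindlimb range of 129–216 CPM (median 143) lay above the forelimb range of 92.5–124 CPM (median 112), a log2 fold change of 0.44 ± 0.066 (adjusted p 3.93e-05). ADAMTS1 (0.37) and ADAMTS10, a fibrillin-associated protease (0.35), kept their HH29 calls under every alternative run over all 3 phenotypes.

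Smaller HH29 differences sat nearer the threshold. MMP16 was higher by 0.40 ± 0.11 (adjusted p 0.0171), but not called without replicate 2 or 3, and ADAMTS19 by 0.41 ± 0.13 (adjusted p 0.0487), but not without replicate 2, 3 or 4 or with no filter on low counts. TIMP3 was higher by 0.23 ± 0.071 (adjusted p 0.043), which was not called when any of the 4 replicates was left out, and ADAM33, a membrane-anchored ADAM of mesenchyme, by 0.19 ± 0.06 (adjusted p 0.0488). ADAM23 was lower with a log2 change of −0.20 ± 0.056 (adjusted p 0.0197) and not called without replicate 1, 2 or 3. ADAM10, ADAM17, MMP9 and ADAMTS5 were not called between the limbs at any stage, and the block called ADAMTS5 also at HH29 (−0.17, adjusted p 0.012). With the block, HH29 calls were also added for MMP2 (0.17, 8.74e-05), TIMP2 (0.15, 0.00211) and ADAMTS12 (−0.28, 0.000117), the values in brackets being the log2 fold change and its adjusted p.

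Markers of other tissues also differed between the limbs. At HH21 the muscle progenitor genes PAX3 (−0.32) and PAX7 (−0.97), the glial SOX10 (−2.06) and the osteochondral RUNX2 (−1.20) and SOX9 (−0.41) were lower in hindlimb. Summed levels were 15.3–43 CPM in hindlimb and 20.2–74.9 in forelimb for 2 called of 5 muscle markers, and 2.34–6.09 and 3.61–14 for 1 of 3 nerve and glia markers. Those of the cartilage markers were 165–368 (median 220) and 181–361 (median 248) CPM, and of the osteogenic markers 24.5–52.4 (median 32.2) and 27.2–77.8 (median 38.7). The cartilage gene COL9A1 had hindlimb and forelimb means of 64.6 and 57.4 CPM in scale, 57.7 and 55.4 in grouse, and 20.8 and 32.8 in muff. At HH25 RUNX2 (−1.26), SOX9 (−0.49) and SOX10 (−0.53) were again lower, and the muscle regulator MYF5 was higher (0.40). Of the HH25 lists, 1 of 7 cartilage, 1 of 4 osteogenic and 1 of 3 nerve and glia markers were called lower and 1 of 6 muscle markers higher. The summed HH25 levels in hindlimb and forelimb were 140.4–904 (median 299) and 257–1019 (median 447) CPM for muscle, 9.61–18.8 (median 12.8) and 11.7–25.1 (median 19) for nerve and glia, 34.5–79 (median 55.8) and 37.1–78 (median 59.4) for osteogenic, and 625–1356 (median 864) and 583–1519 (median 779.6) for cartilage markers. At HH29 the endothelial TIE1 was higher in hindlimb (0.33, 1 of 7 endothelial markers, 356–466 CPM against 308–467). In scale at HH29, hindlimb and forelimb means were 4.63 and 10.2 CPM for PAX3 and 8.37 and 13.1 for RUNX2. They were 10.5 and 7.87 for MYF5 and 59.4 and 42.7 for the mesenchyme marker PRRX2. Grouse and muff means differed in the same directions. Summed HH29 mesenchyme levels were 592–715 CPM (median 668) in hindlimb and 538–706 (median 623) in forelimb. HH29 tests of PAX3, RUNX2, MYF5 and PRRX2 are not given here. The part of all these markers in the members' limb differences was not tested. Among the substrates, the proteoglycan LUM was higher in hindlimb at HH29 (1.16), as was the collagen-binding FMOD (0.73). Of the 8 substrates in the proteoglycan list, which includes COMP, 2 were called higher. The glycoprotein TNC was higher at all 3 stages (1.0, 0.72 and 0.33), with 5, 7 and 4 of 21 collagens and glycoproteins called higher and none lower. Inhibitors of other families were called lower for 2, 1 and 0 of 6.

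Whether the limb difference itself changed between HH21 and HH29 was tested with an interaction term over the 48 libraries of those stages. Of 42 members tested, 7 shifted towards hindlimb and none towards forelimb, against 4.29% of all genes called, 2.58% towards hindlimb and 1.71% towards forelimb. With DESeq2 the number was 7 (4.9% of all genes), with the replicate block 17 (13.1%), and with the block but without the muff libraries of HH21 14 (9.79%). ADAMTSL3 changed most, by 1.34 ± 0.20 (adjusted p 4.14e-06), as its forelimb excess narrowed, and the phenotypes alone gave 0.66 in scale, 1.12 in grouse and 2.48 in muff. ADAMTS20 changed by 0.83 ± 0.17 (adjusted p 0.000625), with limb differences of −0.17 at HH21 and 0.66 at HH29. Without replicate 2 or without replicate 4 the number was 4, given here without the share of all genes. The others called were ADAMTS18 (0.80), ADAMTS7 (0.60), ADAMTS3 (0.46), ADAMTS10 (0.43) and MMP2 (0.41). ADAMTS3 lost its call without any of the replicate numbers (adjusted p up to 0.152), ADAMTS18 without replicate 2 or 4, ADAMTS7 without 2, and MMP2 without 3 or 4. The block added ADAMTS19 (0.49), ADAMTS9 (0.36), MMP11 (0.36), MMP16 (0.50) and TIMP2 (0.21) among those named, all shifting towards hindlimb.

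The phenotypes were compared within each limb and stage, 4 libraries against 4. The comparisons of grouse and muff with scale, and of muff with grouse, share libraries pairwise. At HH21 and HH25 edgeR called no member in the 12 comparisons with all libraries of the compared groups and phenotype as the only term. These fits used summed counts, TMM scaling and the filter on low counts, and few of all genes were called in them. Some other edgeR fits without a block did call members, as given in the last section. The replicate block was also fitted in the HH25 comparisons whose same-numbered libraries deviated together, a choice made from these data. It called ADAMTS12 and ADAMTS15 in muff against scale hindlimb (6.26% of all genes) and ADAMTS15 in muff against scale forelimb (4.0%). In grouse against scale forelimb it called ADAMTS12 (0.316%). Without it, the share of all genes called in hindlimb at HH21 was 0%, 0.317% and 0.117% for grouse over scale, muff over scale and muff over grouse, and in forelimb 0.108%, 0.0998% and 0.872%. At HH25 they were 0.146%, 0.34% and 0.603% in hindlimb and 0.187%, 0.13% and 0.651% in forelimb, in that order. The members with an unadjusted p below 0.05 made up 2.38% to 17.1% of those tested in each comparison and all such genes 7.88% to 17.3%; in muff over scale hindlimb at HH21 the shares were 17.1% and 17.3%. DESeq2 called 0 to 2 members, and 0.712% to 4.46% of all genes. Over all members tested, log2 fold changes at these stages ran from −1.28 (ADAMTSL3, muff over scale hindlimb, HH21) to 1.31 (ADAM8, muff over grouse forelimb, HH21). The smallest adjusted p was 0.0509, for ADAMTSL1 in muff over grouse forelimb at HH21.

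ADAMTSL3 in the HH21 hindlimb set muff apart without overlap, since the 4 muff libraries given above, at up to 2.34 CPM, lay below every scale and grouse library. Scale and grouse overlapped each other. The log2 fold change of muff over scale was −1.28 ± 0.27 (adjusted p 0.079) and that of muff over grouse −1.19 ± 0.28 (adjusted p 0.177). Neither was called in these edgeR fits with phenotype as the only term. DESeq2 called both, and the authors' deposited tables list its main feature below 0.05 in both comparisons, at −0.80 and −0.75 on their log2 scale. ADAM9 was likewise lower in muff at HH21 without overlap, at 38.7–43.1 CPM in hindlimb against 46.8–49.9 in scale and 47.5–55.2 in grouse. In forelimb it was 40.2–42.6 CPM against 42.9–51.3 and 44.1–53.8. None of these ADAM9 differences was called in these edgeR fits. The authors' deposited table lists ADAM9 at −0.33 for muff over grouse hindlimb. ADAMTSL3 and ADAM9 were singled out here after their values were seen.

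In forelimb at HH21 ADAMTSL1 was 12.7–24.7 CPM (median 18.8) in muff and 8.11–11.2 CPM (median 9.15) in grouse, without overlap, at 1.01 ± 0.21 (adjusted p 0.0509). It is placed on chromosome Z, where 1 of the 4 muff and 0 of the 4 grouse libraries lay in the upper range of Z levels. With the Z level as a term it was called, at 0.87 (adjusted p 0.0485). ADAM8 was 1.96–3.68 CPM (median 2.62) in muff and 0.786–1.7 CPM (median 0.963) in grouse, also without overlap, at 1.31 ± 0.31 (adjusted p 0.0811). Both were singled out after their values were seen.

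At HH29, muff hindlimb gave 2 calls against grouse, ADAM19 and ADAM12, where 2.92% of all genes were called, and 0 against scale (0.3%). Muff forelimb gave 1 call against scale, ADAMTS1 (0.742% of all genes), and 2 against grouse, ADAM19 and ADAMTS1 (1.06%). The members together held 0.340% ± 0.0297 of all counts in muff hindlimb and 0.290% ± 0.0228 in grouse hindlimb, and 0.319% ± 0.0176, 0.275% ± 0.0099 and 0.267% ± 0.0131 in muff, scale and grouse forelimb (mean ± SD, n = 4). DESeq2 called 5 and 7 members in muff hindlimb against scale and grouse, with 3.75% and 7.24% of all genes, and 7 and 7 in muff forelimb, with 6.59% and 7.36%. An unadjusted p below 0.05 was reached by 16, 17, 15 and 14 of 42 members in that order, and by 17.6%, 21.3%, 21.2% and 20.1% of all genes. The median member log2 fold change was 0.31, 0.28, 0.29 and 0.28, against 0.017, 0.0057, 0.017 and 0.017 for all genes. Grouse against scale gave no call in either limb (0.326% and 0.0317% of all genes), 3 and 1 members with an unadjusted p below 0.05 (11.8% and 6.94% of all genes), and 0 and 0 calls with DESeq2.

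ADAM19, the sheddase also higher in hindlimb than forelimb at this stage, had 41.1, 27.1, 26.2 and 26.1 CPM in the muff hindlimb libraries, 23.7, 23.6, 15.9 and 18 in scale and 14, 22.2, 17.4 and 18.9 in grouse. In forelimb muff had 21.3, 17.5, 18 and 19.6, scale 15, 11.3, 11.2 and 10.5 and grouse 9.12, 10.8, 9.11 and 12.7. Muff lay above both other phenotypes without overlap in each limb, and hindlimb replicate 1 stood far above the other muff hindlimb libraries. Replicate 1 was also the highest of the muff forelimb libraries. Same-numbered limbs deviated together at HH29, so the limbs are not independent observations. The log2 fold changes of muff were 0.74 ± 0.18 (adjusted p 0.0485) over grouse and 0.57 ± 0.18 (adjusted p 0.149) over scale in hindlimb, and 0.87 ± 0.15 (adjusted p 0.0371) over grouse and 0.67 ± 0.14 (adjusted p 0.054) over scale in forelimb. Without muff replicate 1 the values over grouse were 0.55 (adjusted p 0.0712) in hindlimb and 0.82 (0.102) in forelimb, and with replicates 1 and 2 set against 3 and 4 as a term both had an adjusted p of 0.0615. The hindlimb call was also lost without grouse replicate 1, 3 or 4 or muff replicate 2 or 3, and the forelimb call without grouse replicate 1 or 3 or muff replicate 2, 3 or 4.

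ADAM12 had 27.1, 18.6, 23.9 and 18 CPM in muff hindlimb, 14.5, 14.6, 11.7 and 13 in scale and 11.7, 13.3, 16 and 13 in grouse. Its forelimb values were 28.4, 19.2, 22 and 19.6 in muff, 16.1, 16, 16.8 and 12.5 in scale and 10.7, 14.1, 13.9 and 14.1 in grouse. Muff again lay above the others in both limbs without overlap, with replicate 1 the highest muff library in each limb. The log2 fold change over grouse was 0.71 ± 0.16 (adjusted p 0.0375) in hindlimb, and the other 3 were not called: 0.71 over scale in hindlimb (adjusted p 0.0756), 0.54 over scale (0.097) and 0.75 over grouse (0.065) in forelimb. The called value was 0.59 (adjusted p 0.0703) without muff replicate 1, and it also lost its call without any of grouse replicates 1 to 4 or muff replicate 3. In hindlimb, muff also lay above scale without overlap for ADAMTSL2, ADAMTS15, ADAM33 and ADAMTS14. None of these was called (adjusted p 0.0544, 0.113, 0.0958 and 0.244). How many of all genes were equally separated is not given, so the lack of overlap does not set these members apart from other genes.

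ADAMTS1, a versican-cleaving protease, had 66.3, 57.9, 61.9 and 57 CPM in muff forelimb, 45.8, 43.8, 40.3 and 42.7 in scale and 36.6, 35.1, 35.5 and 42 in grouse. The 4 muff values lay above all others in forelimb. In hindlimb muff had 76.9, 74.6, 75.8 and 59.1, scale 56.5, 60.3, 56.1 and 59.5 and grouse 44.8, 60.4, 44.7 and 55.3, where muff replicate 4 fell within the other ranges. The forelimb log2 fold changes were 0.50 ± 0.086 (adjusted p 0.0312) over scale and 0.70 ± 0.10 (adjusted p 0.0193) over grouse. In hindlimb they were 0.31 ± 0.10 (adjusted p 0.152) and 0.49 ± 0.12 (adjusted p 0.052), not called. The forelimb calls were lost without muff replicate 1 (adjusted p 0.0778 and 0.0714), 2 or 3, that over scale also without scale replicate 2, 3 or 4, and that over grouse without grouse replicate 1 or 3.

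**Figure D4:**
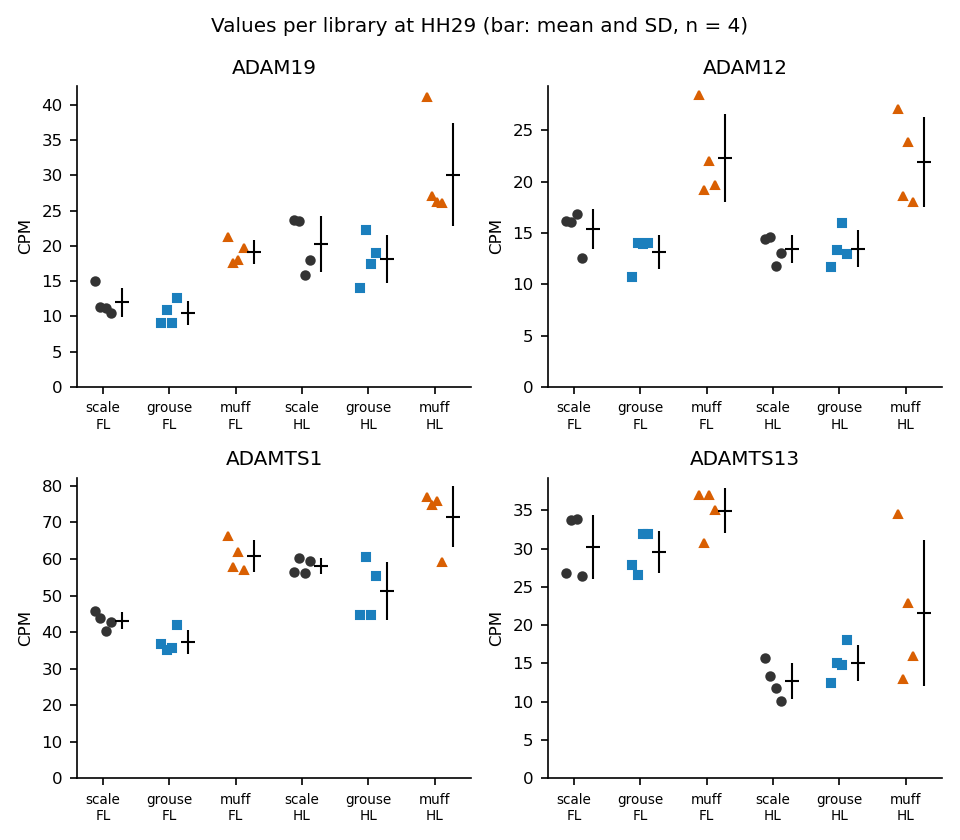
Points are the CPM of each library at HH29 by phenotype and limb bud (FL forelimb, HL hindlimb), with the mean and SD of 4 libraries beside them, for ADAM19, ADAM12, ADAMTS1 and ADAMTS13. Muff lies above scale and grouse for ADAM19 and ADAM12 in both limbs, and the muff hindlimb values of ADAMTS13 spread up to the forelimb level.

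Among the osteogenic markers, IBSP, a bone matrix gene, was called higher in muff in all 4 comparisons. Its log2 fold changes were 4.12 and 4.69 over scale and grouse in hindlimb, and 4.21 and 4.56 in forelimb. No other of the 4 osteogenic markers was called. Mean hindlimb levels in muff, scale and grouse were 26.2, 1.49 and 1.01 CPM for IBSP and 38.5, 36.4 and 29.8 for SPP1. For ALPL they were 22.5, 17.6 and 17.2, and for RUNX2 10.3, 8.37 and 11.5. The summed osteogenic level was 65.8–128 CPM in muff hindlimb, 57.4–71.9 in scale and 42.9–71.9 in grouse, and 59.2–118, 56–70.3 and 38.4–61.6 in forelimb. Cartilage markers gave no call, with 1225–2659, 1049–1633 and 1768–2592 CPM in muff, scale and grouse hindlimb. Their part in the values of ADAM19, ADAM12 and ADAMTS1 was not tested. Among the substrates, COL1A1, a chain of the main bone and skin collagen, was higher in muff than in scale in hindlimb (0.62) and forelimb (0.68), and the collagen COL3A1 in forelimb (1.71).

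The 4 members that the RefSeq assembly places on chromosome Z, ADAMTS6, ADAMTS12, ADAMTS19 and ADAMTSL1, were singled out after the data were seen. At HH25 all 8 scale libraries lay in the upper range of Z levels, and 1 of 4 libraries in each grouse and muff group. ADAMTS12 at HH25 ranged over 46.9 to 70.8 (median 51.8, 12 libraries) CPM in libraries of the upper range and 23.2 to 34.5 (median 28.6, 12 libraries) in those of the lower. The ranges did not meet. ADAMTS6 likewise gave 17 to 22.9 (median 19.4, 12 libraries) and 9.65 to 14.2 (median 11.5, 12 libraries), without overlap. ADAMTSL1 ranged over 22 to 38.8 (median 28.6, 12 libraries) and 14.3 to 28.7 (median 19.9, 12 libraries), and ADAMTS19 over 27.8 to 49.3 (median 36.5, 12 libraries) and 19 to 30.3 (median 29, 12 libraries), each with overlap.

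**Figure D5:**
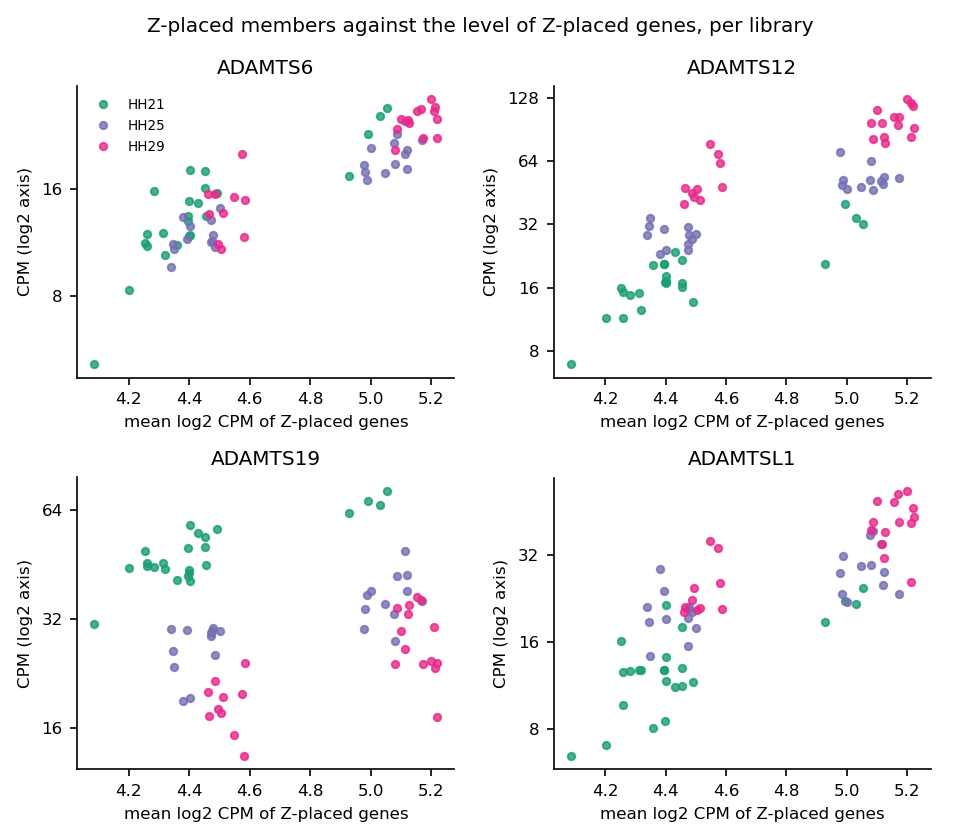
Each point is a library, with the mean log2 CPM of Z-placed genes on the x axis and CPM on a log2 axis on the y axis, for the 4 Z-placed members, coloured by stage. The libraries form separate clouds on the x axis, 42 at 4.09 to 4.59 and 30 at 4.93 to 5.22, and ADAMTS6 and ADAMTS12 are higher in the right-hand cloud at HH25 without overlap.

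At HH25 ADAMTS12 was −0.74 in grouse and −0.80 in muff against scale in hindlimb, not called, and with the Z level as a term these became −0.17 and −0.24. Same-numbered scale and muff libraries deviated together at HH25 in both limbs, as did scale and grouse in forelimb. The block called ADAMTS12 and ADAMTS15 in muff against scale hindlimb, ADAMTS15 in muff against scale forelimb, and ADAMTS12 in grouse against scale forelimb (−0.66, adjusted p 0.0252). The upper range of Z levels held 4 libraries at HH21, 12 at HH25 and 14 at HH29, and the lower range 20, 12 and 10. The Z level thus went partly with stage, and its term can take out part of a stage change. The stage rise of ADAMTS12 kept its call with the Z level as a term at each step, at 0.84 and 0.67 in hindlimb and 0.62 and 0.82 in forelimb. ADAMTSL1, whose protein is an ADAMTS-like matrix component, gave 0.59, 0.36, 0.61 and 0.29 in the same order, against 0.88, 0.54, 0.86 and 0.44 without the term, all called. The second-step values without the term were not called without replicate 2 in either limb or without replicate 3 in forelimb. ADAMTS6, a fibrillin-associated protease, was −0.011 from HH21 to HH25 in forelimb without the term and −0.36 with it (adjusted p 0.0004).

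The authors' deposited tables compare scale forelimb with scale hindlimb and the hindlimbs of the phenotypes. Of the 45 member features, the authors' deposited table lists 4 below an adjusted p of 0.05 between the scale limbs at HH21, 5 at HH25 and 8 at HH29. Over all features with an adjusted p, the authors' deposited numbers were 296 of 15661, 590 of 14577 and 486 of 15090. In the authors' deposited table of scale limbs at HH25, ADAMTS13 stands at 1.0 and ADAMTS9 at −0.41 on a log2 scale with the forelimb over the hindlimb. The authors' deposited table of muff over scale hindlimb at HH29 lists 5 features, among them ADAM12 at 0.59 and ADAM19 at 0.49. For muff over grouse hindlimb at HH29, the authors' deposited table lists 6, with ADAMTS1 at 0.45, ADAM19 at 0.62 and ADAM12 at 0.60. Grouse against scale at HH29 has 0 in the authors' deposited table. Over all features HH29 gives 879 of 14730 (muff over scale), 1132 of 15449 (muff over grouse) and 227 of 15809 (grouse against scale). At HH21 the authors' deposited tables list, in that order, 3, 4 and 3 member features. All features there gave 1147 of 13526, 706 of 14238 and 941 of 12102. At HH25 they list 3, 2 and 1 member features, against 1585 of 14222, 1196 of 14222 and 479 of 13866.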

How the data were processed

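Pairs of limb buds gave total RNA, and poly(A)-selected stranded libraries were sequenced as paired ends, per the labels' protocols. Per the submitters' processing notes the tools were FastQC, STAR, featureCounts and DESeq2. Versions and genome build were not given in the sources used here. The deposited files hold raw counts per transcript feature. The authors' deposited comparison tables hold log2 fold changes and adjusted p-values per feature and supplied the gene symbols (17421 of 21379 features). Counts of features sharing a symbol were summed, giving 15850 genes. Another 24 libraries, from chicken, are not used here.

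Log2 fold changes came from edgeR 4.0.16 in R 4.3.3 (TMM scaling, filterByExpr, quasi-likelihood test, Benjamini-Hochberg adjustment over all genes, threshold 0.05), in 26 comparisons fitted on the libraries compared. CPM used TMM factors over the 72 libraries. SE is the size of the log2 fold change over the root of F. The procedure was tested on simulated counts. No pair of libraries of a group agreed within sampling noise (lowest chi-square per degree of freedom 3.79 over 108 pairs).

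The members and lists were chosen with earlier results of these data known. Listed for every comparison were 17 measured members set by role, with the 8 called members of largest change in each direction between stages and limbs, and every called member between phenotypes. The text does not name all 17 for each comparison, and between phenotypes it names mainly members that were called or stood out. Further members are named to account for the family and were chosen after their values were seen. Roles given for genes are background, mostly from mammals. Wherever ranges are said not to overlap, the share of all genes equally separated is not given.

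Same-numbered forelimb and hindlimb libraries deviated together in all 12 pairs at each stage (lowest correlation of deviations 0.279, 0.517 and 0.212 at HH21, HH25 and HH29), so the replicate block is given beside the limb counts it moves. Between phenotypes all 4 pairs exceeded 0.1 for grouse and muff hindlimb at HH21, and for scale with muff in both limbs and scale with grouse forelimb at HH25. The labels give no pairing between phenotypes, so the block there rests on these correlations alone. Between stages the numbers did not pair the libraries. At HH21 the Z level of same-numbered muff limbs differed in replicates 2 and 4. Alternatives were DESeq2 1.42.0, its size factors in edgeR, no filter, unsummed features, the block, replicates 1 and 2 against 3 and 4 as a term, the Z level as a covariate, all 6 groups of a stage, each phenotype alone and each replicate left out.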

Additional observations from a re-analysis of the deposited data

Results flagged for a closer look

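At HH29, 30 sets of 4 libraries were tested for a library far from the other 3, which chance gives in about 1 of 20 sets. ADAM19 in muff hindlimb replicate 1 stood at 41.1 CPM, above the other 3 muff hindlimb libraries. ADAM19 in scale forelimb replicate 1 was high for its set at 15 CPM. ADAM12 in grouse forelimb replicate 1 was low at 10.7 CPM. ADAMTS1 in muff hindlimb replicate 4 was low at 59.1 CPM.

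The difference between hindlimb and forelimb changed from HH21 to HH29 by the interaction test for 7 members. These changes were 1.34 for ADAMTSL3, 0.83 for ADAMTS20, 0.80 for ADAMTS18, 0.60 for ADAMTS7, 0.46 for ADAMTS3, 0.43 for ADAMTS10 and 0.41 for MMP2 on the log2 scale, each towards higher hindlimb values.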

How the results depend on the processing

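Counts are of called members. They are given here without the share of all genes called in the same fits. They therefore do not show whether members moved more or less than other genes. Leaving out each replicate in turn gave 24 to 31 (hindlimb) for HH21 to HH25 and 30 to 32 for HH25 to HH29, 28 to 33 for forelimb HH25 to HH29, 6 to 7, 5 to 10 and 9 to 11 between limbs at HH21, HH25 and HH29, and 4 to 8 for the change of the limb difference. Single phenotypes, with 4 libraries a group, gave fewer: scale 19 and grouse 17 of 29 (hindlimb HH21 to HH25), scale 20 of 32 (hindlimb HH25 to HH29), scale 15 and grouse 12 of 34 (forelimb HH25 to HH29), scale 3, grouse 1 and muff 2 of 8 between limbs at HH21, 1, 2 and 2 of 11 at HH25, 2, 1 and 0 of 14 at HH29, and 0, 0 and 1 of 7 for the change of the limb difference. ADAM33 and MMP15 changed sign in forelimb from HH25 to HH29 in muff alone, at 0.014 and 0.031. The replicate block, where limbs are paired, gave 10, 21 and 22 between limbs and 17 for the change, or 14 without the muff libraries of HH21, an alternative chosen after seeing the data.

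Between phenotypes at HH29, DESeq2 gave 5 (muff over scale) and 7 (over grouse) in hindlimb and 7 and 7 in forelimb, against 0, 2, 1 and 2 with edgeR. With all 6 groups fitted these were 1, 4, 2 and 7, and leaving out a library gave 0, 0 to 7, 0 to 2 and 0 to 5. The 7 arose without muff replicate 4 and the 5 without grouse replicate 2. The term for replicates 1 and 2 gave 1, 0 and 1 for muff over scale hindlimb, over grouse hindlimb and over grouse forelimb, the Z level 1 and 2 for muff over scale in hindlimb and forelimb, unsummed features 1 for muff over grouse hindlimb, and the block 0 for muff over grouse forelimb, where the numbers do not pair the libraries. At HH25 grouse over scale hindlimb gave 2 with DESeq2, 2 with the block, 2 with the replicate term and 0 to 3 leaving out a library (3, all placed on Z, without grouse replicate 4). Muff over scale hindlimb gave 1, 2, 1 and 0 to 2 in that order (2 without muff replicate 1), grouse over scale forelimb 2, 1, 1 and 0 to 2 (2 without grouse replicate 4), muff over scale forelimb 1 with the block and 0 to 2 leaving out a library (2 without muff replicate 1), and muff over grouse forelimb 1 with DESeq2, 1 with the block and 1 with the replicate term. At HH21 muff over scale hindlimb gave 1 with DESeq2 and 1 with all 6 groups, muff over grouse hindlimb 2, 3 and, with the replicate term, 1, and muff over grouse forelimb 2 with DESeq2, 1 with each of DESeq2's size factors, no filter, unsummed features, the replicate term, the Z level and all 6 groups, and 0 to 1 leaving out a library (1 without muff replicate 1). The cause of these changes was not tested. The low counts of ADAM11 and ADAM20 limit what can be said of them.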
